A study of Mus musculus with 6 samples.

Results

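The sorting nexins and the COP vesicle coat genes were followed in tumors of B16, a transplantable melanoma line that was grown in C57BL/6 mice, the strain it came from. Members were the named genes Snx followed by a number, the listed Sec and Cop genes of the COPII and COPI coats, and Mia3. Each needed a probe above background (detection p-value below 0.05) on 3 or more of 6 arrays. These detection p-values were the measured values that chose the members, and 43 of the 10523 named genes with a detected probe met the rule. A further 7 genes of these names (Copb1, Sec16b, Sec23b, Sec24a, Snx5, Snx22 and Snx31) were not analysed here. All mice received 400000 B16 cells and carried tumors of that line for 8 days, after which tumors were cleared of neighbouring normal tissue. One group was large tumors of 70 to 80 mm2 and the other small tumors of 10 to 20 mm2, with 3 tumors and 1 array each. The labels give no treatment, genetic change or age, and do not say whether the tumors came from separate experiments. The p-values therefore measure the spread between these samples, which may be in part technical.

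Proteins made in the endoplasmic reticulum (ER) leave it in vesicles shaped by the COPII coat, and the COPI coat carries proteins back from the Golgi. Sorting nexins share the PX domain, which binds phosphoinositide lipids of membranes. Many of them sort receptors on endosomes, and one subfamily is anchored in the ER by a transmembrane segment and meets lipid droplets, endosomes or lysosomes at contact sites. Pigment cells depend on this traffic, because melanosomes are built from endosomal membranes and from cargo delivered by the secretory pathway.

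The main result was a rise of 4 members in large tumors, measured as an adjusted p under 0.05 (limma, adjusted over all 19120 tested probes) for at least 1 probe. They were Mia3, Snx14, Snx19 and Snx25. The call of Snx25 rests only on a probe that met the detection filter through the large arrays. Of the 71 member probes tested, 6 were called higher (8.45%) and 0 lower. Over all probes, 244 were called higher (1.28%) and 313 lower (1.64%). After quantile normalization without background correction these totals were 477 higher and 378 lower, and with scaling to the 75th percentile 1555 and 560. Counted by gene, 4 of 43 members (9.30%) had a probe called higher, against 1.88% of all named genes, and 0 had one called lower, against 2.17%. Since the set was proposed with results of these data in view, these shares describe it and are no support for it. At an unadjusted p under 0.05, 15 member probes were higher (21.1%) and 8 lower (11.3%), against 13.7% and 8.89% of all probes. The median log2 fold change, large minus small, was -0.02 over the members' lead probes and 0.02 over all tested probes. A lead probe is the detected probe of a gene with the highest mean level over the 6 arrays. In whole tumors, a change in the number of cells of a type and a change in RNA per cell cannot be told apart.

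Of 72 member probes 71 were tested, and 64 of these were detected on all 6 arrays. The weakest by detection that entered was a Snx14 probe (ILMN_2619249), detected on 3 large and 1 small arrays. Just outside lay a Snx27 probe (ILMN_1260052), detected on 1 array. In all, 6 probes were detected on every large array and on fewer small ones, and 1 the other way round. Those 6 met the filter through the large arrays alone, and among them are 2 of the 6 called probes, 1 of Snx14 and 1 of Snx25.

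The arrays differed in brightness. Median signals were 117 to 128 in large and 104 to 115 in small tumors, and small tumor 1 was dimmest, with a 95th percentile of 949 against 1477 to 1997 elsewhere. All 11 melanoma and melanocyte markers at hand were detected on at least 3 arrays. Their summed level was 115376 to 122383 in large and 105116 to 112258 in small tumors. Skeletal muscle markers (17 of 17 detected) summed to 15693 to 22045 in large and 45835 to 65749 in small tumors, and T and NK cell markers (10 of 10) to 3148 to 4013 and 4062 to 4431. Adipocyte markers (4 of 4) summed to 1514 to 2225 and 2547 to 3058. These 4 sums did not overlap between groups. Keratinocyte markers (12 of 12) split the arrays within both groups, with sums of 55348, 11736 and 579 in large tumors 1 to 3, and of 326, 28022 and 37364 in small tumors 1 to 3. Sums of macrophage (12 markers), fibroblast (11), endothelial (10) and red blood cell (4) markers overlapped too. No marker of these lists went undetected on all arrays. The part of these cells in the results below was not tested.

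**Figure D1:**
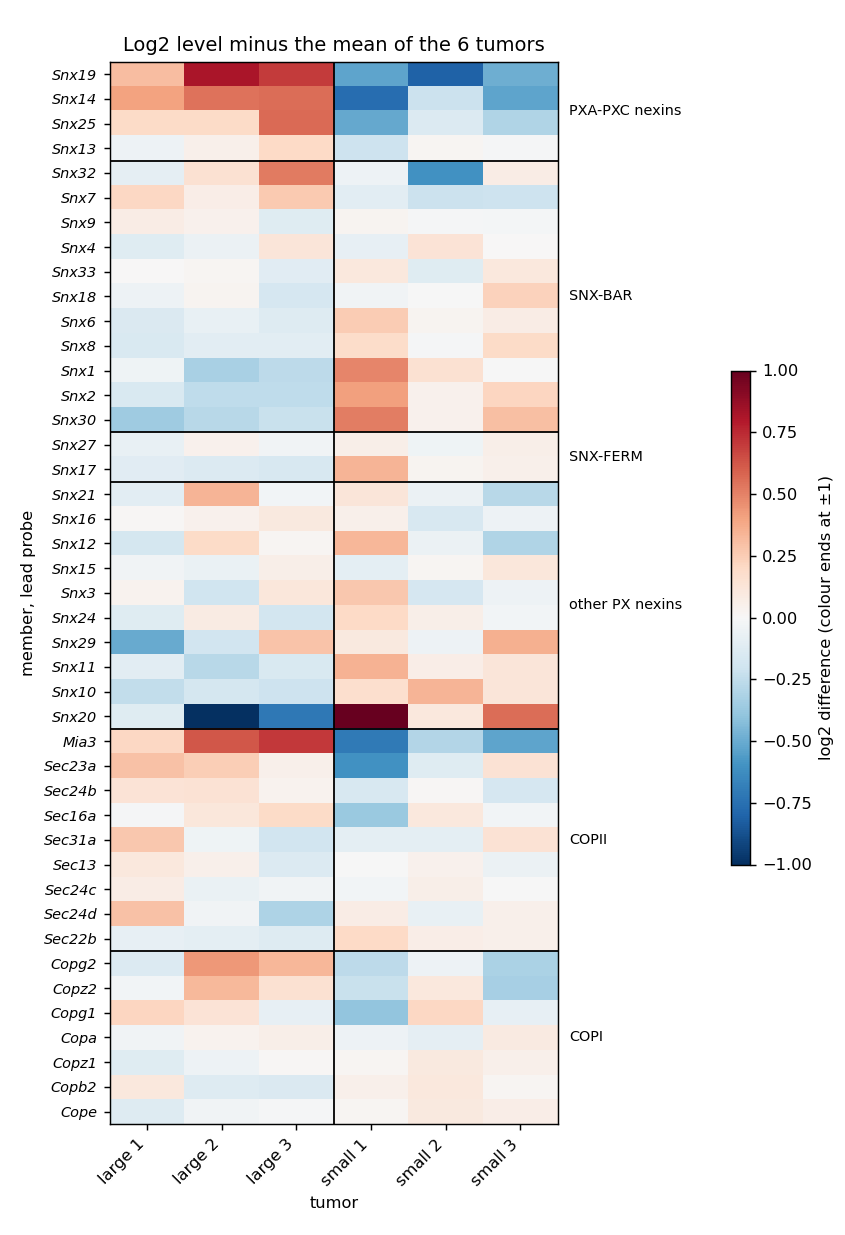
Log2 level of each member's lead probe (rows, by family) in each tumor (columns), as the difference from that probe's mean over the 6 tumors. Snx19, Snx14 and Mia3 lie above their means in each large tumor and below them in each small tumor, and Snx20 does the reverse, while most COPI and COPII rows stay near 0.

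The clearest rises among nexins were in the ER-anchored subfamily that carries PXA and PXC domains, Snx13, Snx14, Snx19 and Snx25. All 11 of its tested probes had a positive fold change, 4 were called higher, and the lead probes had a median log2 fold change of 0.82. Of these 11 probes, 3 met the detection filter through the large arrays alone, so the counts are given as a description. In 9 of the 11 probes the large tumors did not overlap the small ones and lay above them. Over all probes this held for 17.3%, and the opposite, large below small, for 11.8%. The lead probes of all 4 genes stayed positive under each of the 4 other normalizations tried (median 0.50 to 0.79). The subfamily was singled out after its values were seen, and no test was made of it.

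Snx14, whose human counterpart is mutated in a childhood cerebellar ataxia and which tethers the ER to lipid droplets, had log2 levels of 10.43, 10.58 and 10.59 in large tumors. In small tumors its lead probe (ILMN_2889274) read 9.27, 9.82 and 9.51. Every large tumor lay above every small one. The difference was 1.01 ± 0.16 (SE, n = 3 per group), a 2.01-fold rise (adjusted p = 0.0364, limma). As deposited, before background correction, the signals of this probe were 1773, 2017 and 1798 in large against 428, 958 and 782 in small tumors. The third probe (ILMN_1236312) had 0.46 ± 0.11 (adjusted p = 0.0764). The dimmest (ILMN_2619249) had 1.08 ± 0.19 (adjusted p = 0.0387), but it entered through the large arrays and is no independent support. It was not above background in small tumors 1 and 2, with detection p-values of 0.469 and 0.125. Without background correction its value was 0.35 after quantile normalization (adjusted p = 0.0559) and 0.21 after scaling to the 75th percentile (adjusted p = 0.231).

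Snx19, a nexin of ER contacts with endolysosomes that has no RGS domain, had levels of 6.12, 6.63 and 6.51 in large against 5.29, 5.0 and 5.32 in small tumors (ILMN_2691536). The groups did not overlap, and the difference was 1.21 ± 0.17, or 2.32-fold (adjusted p = 0.0316, limma). Its other probe (ILMN_1256066) gave 1.20 ± 0.25 (adjusted p = 0.055), with 6.26, 6.27 and 6.55 in large against 4.62, 5.22 and 5.64 in small tumors. That probe was detected on 2 of the 3 small arrays, with a detection p-value of 0.192 in small tumor 1. It met the filter through the large arrays and is no independent support. The signals behind the first probe were low, 173, 218 and 197 in large against 112, 123 and 131 in small tumors. The detection p-value reached 0.0363 in small tumor 1 and 0.0353 in small tumor 2. After quantile normalization without background correction it was 0.45, and with scaling to the 75th percentile 0.37 (adjusted p = 0.0691).

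Snx25, which carries an RGS domain like Snx13 and Snx14, was called on its dimmest probe. That probe (ILMN_2690107) read 5.71, 5.84 and 5.80 in large against 4.86, 5.16 and 5.19 in small tumors, a difference of 0.72 ± 0.13 (1.64-fold, adjusted p = 0.0418, limma). It was detected on 2 of the 3 small arrays and met the filter through the large ones, and scaling to the 75th percentile left 0.11 (adjusted p = 0.53). The lead probe (ILMN_2648089) read 9.36, 9.36 and 9.73 against 8.66, 9.03 and 8.86, which is 0.63 ± 0.16 (adjusted p = 0.0804). The third (ILMN_2851429) overlapped between groups at 0.31 ± 0.18. Large tumors lay above small ones without overlap on the first 2 of these probes, and the call depended on the probe.

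Snx13, a regulator of cholesterol export from lysosomes, was the member of the subfamily without a call in the fit as reported. It is given with its values after they were seen. With only probes detected on all 6 arrays, 4 members again had a called probe, with Snx13 in place of Snx25. The lead probe of Snx25 then had an adjusted p of 0.0553 (limma). Its lead probe (ILMN_1260440) had 10.43, 10.53 and 10.68 in large against 10.27, 10.50 and 10.47 in small tumors, which overlapped, with a difference of 0.13 ± 0.13 (95% interval -0.17 to 0.43). The other probes gave 0.48 ± 0.14 (ILMN_2877227, adjusted p = 0.104) and 0.88 ± 0.21 (ILMN_1240380, adjusted p = 0.0701), without overlap in either. The probes of this gene therefore disagreed on size by 0.75 on the log2 scale.

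**Figure D2:**
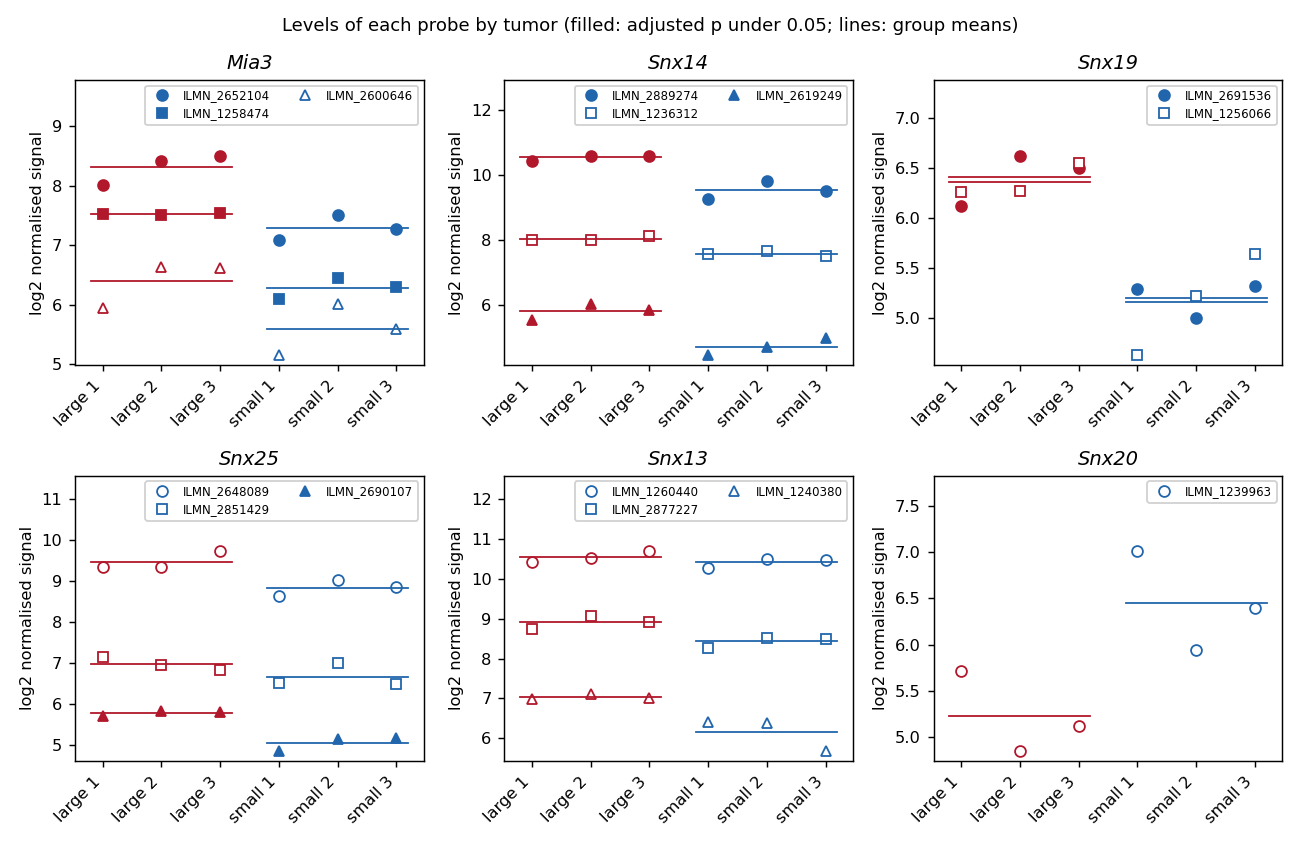
Log2 normalised signal of every tested probe of Mia3, the 4 PXA-PXC nexins and Snx20 in each of the 3 large (red) and 3 small (blue) tumors. Horizontal lines are group means, each symbol shape is 1 probe, and filled symbols mark probes with an adjusted p under 0.05. The called probes of Snx14, Snx19, Snx25 and Mia3 show no overlap between groups.

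The promoters of the 3 called nexins are shown because these genes rose together. Sequences are RefSeq's, on GRCm38.p6, from 250 bases before to 50 after the gene start, written 5′ to 3′ on the gene's strand. Where RefSeq lists several starts, as for Snx25 with 2, the first is used. Capitals mark matches, on either strand, to any of 3 words. GACGTG is the core of elements bound by the ER stress factors ATF6 and XBP1, TGACGT a core of sites for the CREB and ATF family, and CACGTG the E-box bound by MITF, TFEB and MYC. The first and second of these overlap in TGACGTG.
Snx14 promoter, chr9:88438880-88439179, minus strand: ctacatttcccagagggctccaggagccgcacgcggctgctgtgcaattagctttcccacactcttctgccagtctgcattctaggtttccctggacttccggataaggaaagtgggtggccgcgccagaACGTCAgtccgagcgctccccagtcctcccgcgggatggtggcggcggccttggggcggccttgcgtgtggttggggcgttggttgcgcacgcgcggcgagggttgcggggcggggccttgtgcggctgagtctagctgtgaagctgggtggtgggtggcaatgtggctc
Snx19 promoter, chr9:30427079-30427378, plus strand: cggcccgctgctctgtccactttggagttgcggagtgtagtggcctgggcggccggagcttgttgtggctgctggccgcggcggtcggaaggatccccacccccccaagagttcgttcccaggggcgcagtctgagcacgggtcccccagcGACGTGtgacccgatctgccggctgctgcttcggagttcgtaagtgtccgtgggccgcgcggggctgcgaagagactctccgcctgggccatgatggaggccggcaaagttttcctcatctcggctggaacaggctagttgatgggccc
Snx25 promoter, chr8:46152392-46152691, minus strand: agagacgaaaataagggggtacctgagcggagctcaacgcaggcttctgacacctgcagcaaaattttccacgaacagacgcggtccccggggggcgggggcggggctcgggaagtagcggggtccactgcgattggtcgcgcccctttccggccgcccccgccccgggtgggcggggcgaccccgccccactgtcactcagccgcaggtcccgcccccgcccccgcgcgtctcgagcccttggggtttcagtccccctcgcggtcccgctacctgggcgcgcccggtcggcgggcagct
The Snx14 window held 1 TGACGT match, read on the opposite strand, the Snx19 window 1 GACGTG match, and the Snx25 window none of the 3 words.

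Among COPII genes the change was in Mia3, also known as TANGO1, a transmembrane protein of ER exit sites that binds collagen and recruits coat to load it. Its lead probe (ILMN_2652104) read 8.00, 8.42 and 8.51 in large against 7.09, 7.51 and 7.28 in small tumors. No small tumor reached the lowest large one, and the difference was 1.02 ± 0.18, or 2.03-fold (adjusted p = 0.0392, limma). The second probe (ILMN_1258474) had 7.52, 7.50 and 7.54 against 6.10, 6.46 and 6.31. Its rise of 1.23 ± 0.13, 2.35-fold, had the smallest adjusted p of all member probes (0.0244). Without background correction it was 0.68, both after quantile normalization and after scaling to the 75th percentile, and still called (adjusted p = 0.0113 and 0.00552). The large tumors differed little among themselves there (SD 0.02) and the small ones more (SD 0.18). The third probe (ILMN_2600646) gave 0.81 ± 0.27 (adjusted p = 0.143), with large tumor 1 at 5.94 below small tumor 2 at 6.02. That probe was not above background in small tumor 1 (detection p-value 0.0534) and met the filter through the large arrays. The Mia3 promoter, shown as that of the fourth called gene, holds TGACGTG, in which 2 of the words overlap.
Mia3 promoter, chr1:183369516-183369815, minus strand: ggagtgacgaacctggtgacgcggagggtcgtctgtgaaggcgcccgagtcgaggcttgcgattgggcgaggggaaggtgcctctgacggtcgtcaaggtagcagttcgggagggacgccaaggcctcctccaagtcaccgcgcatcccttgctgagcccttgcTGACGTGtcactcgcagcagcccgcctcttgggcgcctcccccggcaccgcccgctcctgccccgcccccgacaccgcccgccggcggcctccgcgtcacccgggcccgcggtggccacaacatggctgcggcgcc

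No other COPII gene had a called probe. Of the 8 other COPII members with 10 probes, limma called 0 probes, and the unadjusted p was below 0.05 for 0 higher and 1 lower. The shares of all probes were 1.28% called higher and 1.64% lower, and 13.7% and 8.89% at the unadjusted p. Their lead probes ranged from -0.20 to 0.39, with a median of 0.02. Sec13, an outer coat subunit that also serves in nuclear pores, was at 0.01 ± 0.12 (95% interval -0.26 to 0.29). Sec24c, an inner coat subunit that binds cargo, was at -0.02 ± 0.11, and Sec24d, its paralogue, at -0.04 ± 0.17. Sec24b, another cargo adaptor, had 9.41, 9.42 and 9.31 in large against 9.12, 9.29 and 9.11 in small tumors, apart but by 0.21 ± 0.11 (adjusted p = 0.323). Sec23a, the inner coat subunit that activates the GTPase of the coat, was at 0.39 ± 0.20 with an interval of -0.08 to 0.86. Sec16a, the scaffold of exit sites, was at 0.20 ± 0.15. Sec22b, the fusion protein (SNARE) on these vesicles and no coat subunit, had -0.20 ± 0.11 and -0.23 ± 0.11 on its 2 probes, with large below small tumors in both (adjusted p = 0.314 and 0.249).

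Sec31a, the other outer coat subunit, had probes that disagreed. The lead probe (ILMN_2705966) was at 0.03 ± 0.16. The dimmer one (ILMN_2765024) read 6.41, 6.84 and 6.60 in large against 7.60, 7.33 and 7.03 in small tumors, a difference of -0.71 ± 0.18 (adjusted p = 0.0853) without overlap. The labels do not say which transcripts the probes read.

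COPI subunits had small differences. Of 17 probes for 7 genes, limma called 0, and the unadjusted p was below 0.05 for 2 higher and 0 lower. Over all probes, 13.7% were higher and 8.89% lower at that p, and 1.28% and 1.64% were called. Lead probes ranged from -0.12 to 0.42, with a median of 0.04. The 95% intervals of all 17 probes lay between -0.49 and 0.84. Copa, the alpha subunit of the outer cage, had 11.07, 11.14 and 11.16 in large against 11.05, 11.01 and 11.19 in small tumors, a difference of 0.04 ± 0.11. Copb2, also of the cage, was at -0.11 ± 0.12, and Cope, its stabilising subunit, lay between -0.12 and 0.05 on 4 probes. Copz1, the zeta subunit of the adaptor part, was at -0.11 ± 0.11. Its paralogue Copz2 was positive on all 4 probes, between 0.13 and 0.30, without a call. Copg2, a gamma subunit, had 7.24, 7.82 and 7.72 against 7.12, 7.33 and 7.06, a difference of 0.42 ± 0.18 (adjusted p = 0.216) with overlap. Its paralogue Copg1 went from -0.17 to 0.45 on 4 probes. With scaling to the 75th percentile and no background correction, all 7 lead probes were positive (median 0.28), and still 0 probes were called.

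**Figure D3:**
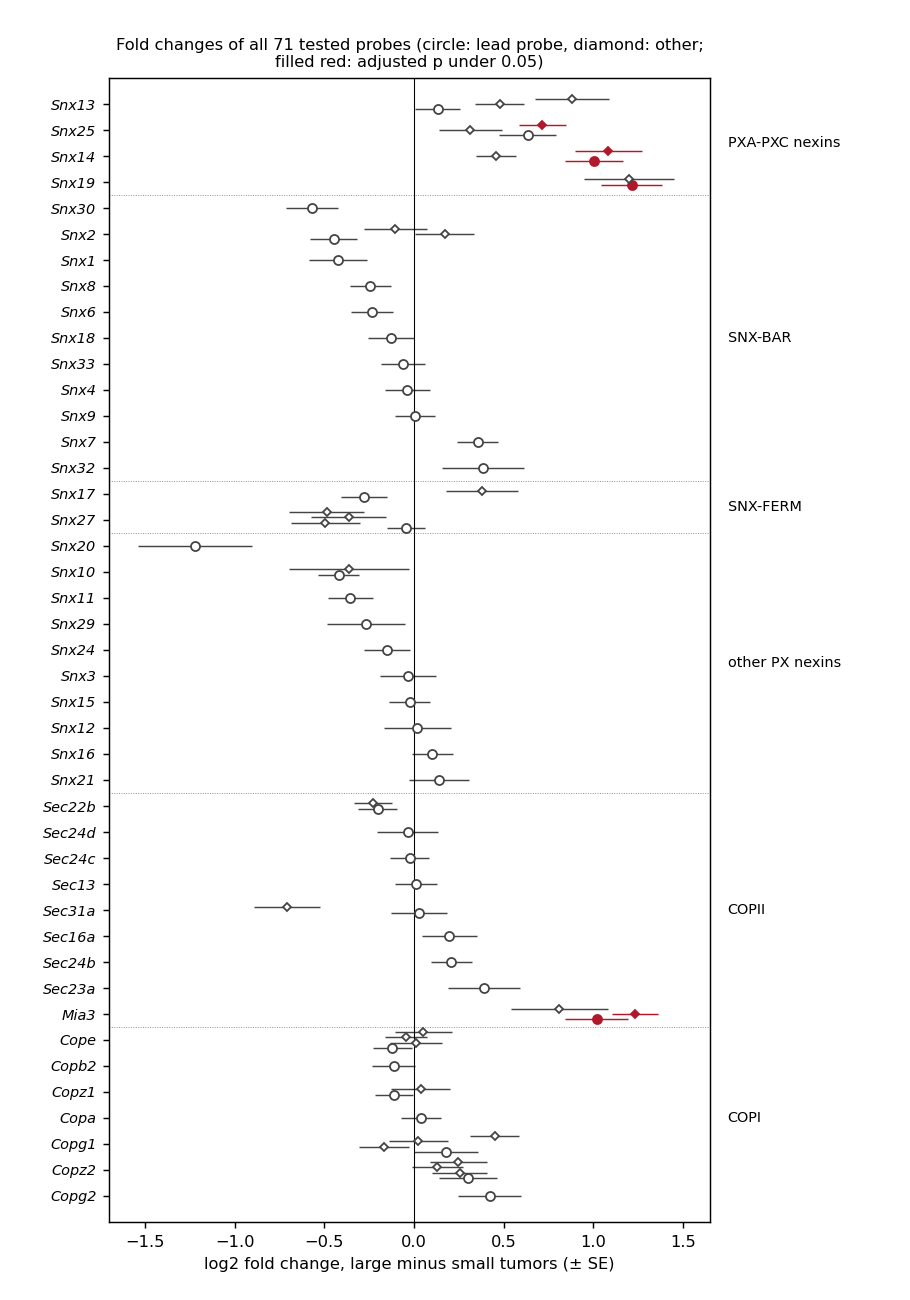
Log2 fold change, large minus small tumors, with its SE, for all 71 tested probes of the 43 members, grouped by family. Circles are lead probes and diamonds other probes, and the 6 filled red symbols have an adjusted p under 0.05. The called probes belong to Snx14, Snx19, Snx25 and Mia3, and COPI probes lie between -0.17 and 0.45.

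The nexins outside the PXA-PXC subfamily had mostly small negative values. Of 30 probes for 23 genes, 0 were called, 1 was higher and 7 lower at an unadjusted p under 0.05 (limma), and 17 of 23 lead probes were negative. The shares of all probes at that p were 13.7% higher and 8.89% lower, and 1.28% and 1.64% were called. With scaling to the 75th percentile the majority turned, and 9 of the 23 lead probes were negative. Among the 11 members with a membrane-bending BAR domain, 8 lead probes were negative and the median was -0.13, which with scaling to the 75th percentile became 3 negative and a median of 0.01. Of 13 probes in this group 5 had large below small tumors without overlap and 1 the reverse, where 11.8% and 17.3% of all probes did so.

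Snx30, a BAR nexin of endosomal recycling, had the lowest value of this group. It read 7.39, 7.46 and 7.52 in large against 8.25, 7.78 and 8.04 in small tumors, apart by -0.57 ± 0.15 (adjusted p = 0.0831), and by -0.31 with scaling to the 75th percentile. Snx2, which sorts cargo with the retromer complex, read 11.57, 11.47 and 11.47 in large against 12.14, 11.77 and 11.95 in small tumors on its lead probe (ILMN_2783010). This gave -0.45 ± 0.13 (adjusted p = 0.108), or -0.18 with scaling to the 75th percentile, while its dimmer probes gave 0.17 and -0.10. The retromer partners Snx1 and Snx6 were at -0.42 ± 0.16 and -0.24 ± 0.12 (adjusted p = 0.185 and 0.279). Snx8 was at -0.24 ± 0.11, and Snx4, of autophagy and recycling, at -0.04 ± 0.13. Snx9, Snx18 and Snx33, which act with dynamin in endocytosis, were at 0.00 ± 0.11, -0.13 ± 0.13 and -0.06 ± 0.12. Snx7, a partner of Snx4, was higher in large tumors without overlap, with 6.33, 6.19 and 6.39 in large against 6.02, 5.91 and 5.92 in small tumors, a difference of 0.35 ± 0.11 (adjusted p = 0.131). Snx32, a relative of Snx6, was at 0.39 ± 0.23 with overlap. Its probe was not above background in small tumor 2 (detection p-value 0.105) and met the filter through the large arrays.

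Snx17 and Snx27, nexins with a FERM domain that return receptors to the cell surface, had -0.28 ± 0.13 and -0.05 ± 0.11 on their lead probes. Snx17 was 0.38 on its second probe, and the other 3 Snx27 probes lay between -0.49 and -0.36, none called.

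Snx20 had the lowest value of all members. It binds the leukocyte adhesion ligand PSGL-1 and is known from blood cells. Its probe read 5.72, 4.85 and 5.12 in large against 7.01, 5.94 and 6.40 in small tumors, without overlap, and was detected on 2 of 3 large arrays. The difference of -1.22 ± 0.32 had an adjusted p of 0.0841 (limma) and a 95% interval of -1.97 to -0.48. It was -0.77 with an offset of 50. Without background correction it was -0.47 after quantile normalization and -0.51 after scaling to the 75th percentile (adjusted p = 0.034). T and NK cell markers were lower in large tumors too, with 7 of 10 called lower, and macrophage markers had 1 of 12 called lower. Lower values were not confined to leukocyte markers. Of skeletal muscle markers 14 of 17 were called lower, and adipocyte sums were lower without overlap, with 0 of 4 called. The part of any of these cells in the value of Snx20 was not tested. Snx10, a nexin of endosomes and osteoclasts that acts with the proton pump, had 10.23, 10.30 and 10.27 in large against 10.64, 10.81 and 10.59 in small tumors, which is -0.42 ± 0.11 (adjusted p = 0.0933), and Snx11, its closest relative, was at -0.36 ± 0.13 (adjusted p = 0.159). Snx3, the retromer partner in Wnt sorting, Snx12 and Snx15 were at -0.03 ± 0.16, 0.02 ± 0.19 and -0.02 ± 0.11. Snx16, Snx21, Snx24 and Snx29 ran from -0.27 to 0.14, and each overlapped between groups. The 10 nexins without a BAR, FERM or PXA-PXC domain had a median of -0.09, which was 0.02 with scaling to the 75th percentile.

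Of the 15 members with several detected probes, 9 had 1 sign on all probes and 6 did not (Cope, Copg1, Copz1, Sec31a, Snx2 and Snx17). None of the 6 had a called probe.

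Genes that work beside the members gave 5 called probes, all higher and all of Mbtps1 and Tmed4. These were 3 of 30 probes of COPII partners and 2 of 13 of TMED genes, against 1.28% of all probes. Counted by gene this was 1 of 18 and 1 of 6, and 0 in each other list, against 1.88% of all named genes. Mbtps1, the Golgi protease that activates membrane-bound transcription factors of the secretory pathway, was called on all 3 probes. Its lead probe read 9.20, 9.24 and 9.19 in large against 8.22, 8.28 and 8.17 in small tumors, a rise of 0.99 ± 0.11 (adjusted p = 0.0244, limma). It was the called gene among 18 tested COPII partners, whose lead probes had a median of 0.25. Tmed4, a cargo receptor of the p24 family that cycles between ER and Golgi, was higher without overlap on all 4 probes. It was called on 2 of them, at 1.13 ± 0.18 and 1.27 ± 0.22 (adjusted p = 0.0364 and 0.0387, limma). Its lead probe was at 0.31 ± 0.12 and the remaining one at 0.95 ± 0.21 (adjusted p = 0.177 and 0.0627). The 6 tested TMED genes had a median of 0.27, and 7 of their 13 probes were higher at an unadjusted p under 0.05, against 13.7% of all probes. Tmed4 alone accounts for 4 of those 7 probes, since all 4 of its probes were higher at that p. Of 10 COPI partners 0 were called, and the smallest p-values were those of Kdelr2 and Kdelr3, receptors that return ER residents, at 0.88 ± 0.18 and 0.62 ± 0.16 (adjusted p = 0.0504 and 0.0806). The 28 genes of ER-Golgi SNAREs and tethers, 25 of retromer and endosomal sorting and 23 of clathrin adaptors gave 0 calls (limma), with medians of -0.01, -0.03 and -0.08. At an unadjusted p under 0.05, 1 of 59 probes of SNAREs and tethers was higher and 7 lower. The numbers were 5 and 3 of 41 probes for retromer and endosomal sorting, and 3 and 2 of 43 for clathrin adaptors. Over all probes the shares were 13.7% higher and 8.89% lower. The genes of these lists with the smallest p on the lead probe were Gosr2 (-0.41), a SNARE, and Trappc9 (-0.43), of a tethering complex. Beside them stood the cargo receptors Igf2r (0.43) and Sort1 (0.44), and the adaptor subunits Ap1s3 (-0.44) and Ap2m1 (-0.33). The other Gosr2 probes gave only -0.11, -0.004 and -0.007. Sort1 overlapped between groups on its lead probe, and its other probes gave 0.32, 0.81 and 0.59, none called. Second probes of Trappc9 and Igf2r gave -0.40 and 0.43.

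Promoter letters were not part of the rule. Of the 35 members with a promoter in the RefSeq table, 15 (42.9%) held GACGTG on either strand. In promoters of all tested genes the share was 9.60% (819 of 8531), and in all 27025 promoters 6.35%. TGACGT was in 28.6% of member promoters against 11.5% of those of tested genes, and the E-box CACGTG in 5.71% against 10.3%. GACGTG was in 6 of 9 COPII, 4 of 7 COPI and 5 of 19 nexin promoters. The longer word GACGTGGCA was in 4 member promoters (Sec13, Sec23a, Sec24c and Sec24d) and in 32 of 8531 promoters of tested genes (0.375%). It is the stretch that the windows of these 4 members share, so its count among members describes them and is no support. The 7 COPII matches are shown with up to 10 bases on each side, on the strand that reads GACGTG, with that word in capitals.
Mia3, chr1:183369635-183369660, minus strand: agcccttgctGACGTGtcactcgcag
Sec13, chr6:113740667-113740692, plus strand: cacggcctcgGACGTGgcagctcaaa
Sec16a, chr2:26445329-26445354, minus strand: acgcgccgaaGACGTGtacggagcgc
Sec16a, chr2:26445202-26445227, plus strand: tgccgccgccGACGTGtccgaaggag
Sec23a, chr12:59011995-59012020, minus strand: cctcccctttGACGTGgcagaggcgg
Sec24c, chr14:20674235-20674260, plus strand: gcctaaggccGACGTGgcagaaggag
Sec24d, chr3:123267461-123267486, plus strand: ccgggcgcctGACGTGgcactagcaa
Fold changes of both kinds of member spanned 0. The 15 members that held it had a median log2 fold change of 0.13 (-0.57 to 1.21) and the 20 that did not one of -0.05 (-0.42 to 1.01). Of the 4 called genes, Mia3 and Snx19 held it, and Snx14 and Snx25 did not. A match is a description of the letters and not a measured binding site.

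The calls rested on all arrays together. Without large tumor 1, large tumor 2, large tumor 3 or small tumor 3, limma called 0 of the 71 member probes, with 12 to 15 higher and 5 to 8 lower at an unadjusted p under 0.05. Over the whole table these 4 fits called 0 or 1 probe. Without small tumor 1 there was 1, a Mia3 probe (ILMN_1258474), and without small tumor 2 there were 4. Over those 6 fits the lead probe of Mia3 ranged from 0.92 to 1.17, that of Snx14 from 0.87 to 1.15 and that of Snx19 from 1.11 to 1.36. Since the groups did not overlap, their sign was fixed whichever array was left out.

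**Figure D4:**
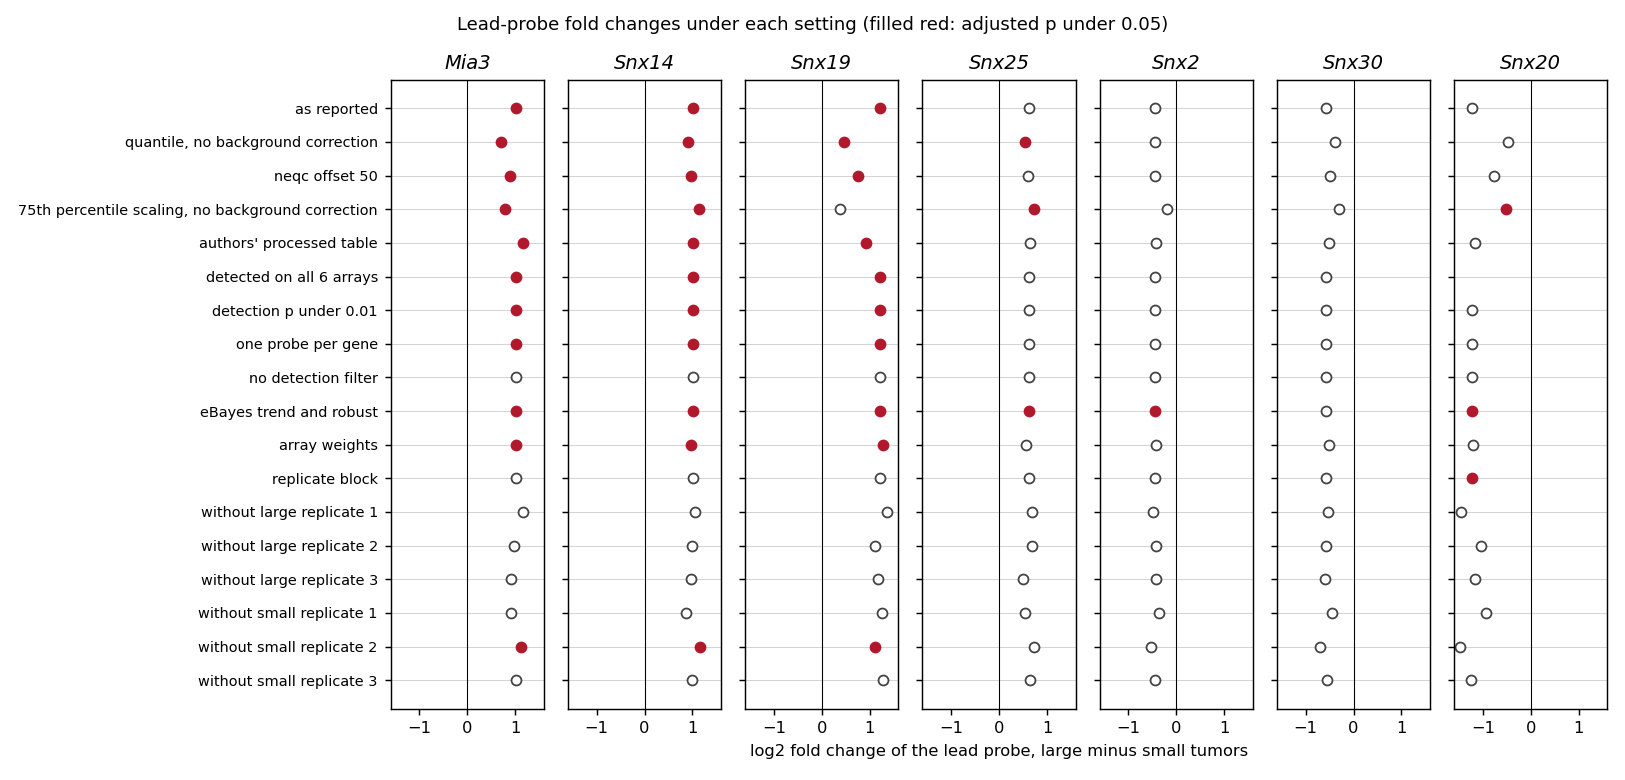
Log2 fold change of the lead probe of 7 members, large minus small tumors, in the fit as reported and under each alternative (rows). Filled red symbols have an adjusted p under 0.05, and a missing symbol means that the probe was not tested. Mia3, Snx14, Snx19 and Snx25 stay positive and Snx2, Snx30 and Snx20 negative in every row, while the calls come and go. Only the rows with another normalization or the authors' processed table could have changed a sign.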

How the data were processed

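Expression was measured on Illumina bead arrays, 1 array for each of 3 large and 3 small tumors. Per the file headers, the deposited signals are intensity values, the mean bead brightness per probe on a linear scale, and the deposited p-value is a detection p-value per probe and array. They were read with GenomeStudio per the submitters' processing notes, and its version and settings were not given in the sources used here. Per the labels' protocols, RNA (100 ng per tumor) went through repeated amplification before labelling, which can shorten the copies. The authors' processed table holds intensity on a linear scale with a floor of 28.8, and its making and normalization are likewise unstated. Its medians were 132.7, 130.8 and 128.5 for large tumors 1 to 3, and 120.0, 130.2 and 131.6 for small tumors 1 to 3.

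The function neqc (limma 3.58.1, R 4.3.3, offset 16) corrected background, equalized quantiles and took log2. The 19120 of 45281 probes detected (p-value below 0.05) on 3 or more arrays were fitted with lmFit and eBayes, with group as the only term. Benjamini-Hochberg adjustment ran over all of them, and a probe was called under 0.05. Positive log2 fold changes mean higher in large tumors. Of the fitted probes 16256 had a single symbol in the platform annotation. Promoters came from RefSeq (GRCm38.p6). On simulated data for this comparison of 19120 probes, 68.5% of 200 probes changed by 1 on the log2 scale and 99% of those changed by 2 were called. In each run 5 unchanged probes were called as well. The simulated noise was independent between probes, so differences that many probes share within a tumor were left out. No pair of arrays held equal signals (0%).

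Members, related lists and marker lists were chosen with earlier results of these data known. Members could all be named. Values on every array were planned for members with a called probe and for the 3 lowest and 3 highest lead probes, and of each related list for called genes or the 2 with the smallest p. The promoter words were chosen later. Alternatives were 3 other ways of normalizing, the authors' processed table, 3 detection filters, 1 probe per gene, a trended robust prior, weights per array, blocking on replicate number, and leaving out each array.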

Additional observations from a re-analysis of the deposited data

How the results depend on the processing

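Over 17 alternatives, the 10 named fold changes gave 164 values, and 0 changed sign. Only the other normalizations and the authors' processed table could have changed one. The detection filters, 1 probe per gene, the trended prior and the replicate block keep the estimate. Since the groups did not overlap on these probes, array weights or a left-out array cannot turn the sign. The number of member probes called higher (6) was 3 with 1 probe per gene, which leaves fewer probes, and 1 with no detection filter, where 45281 probes share the adjustment. It was 1 with the replicate block, and ranged from 0 to 4 with 1 array left out. Members with a probe called higher (4) numbered 1 with no detection filter, 1 with the replicate block, and 0 to 3 with 1 array left out. For probes detected on all arrays they numbered 4, but with Snx13 in place of Snx25. Member probes called lower (0) numbered 1 with quantile normalization and no background correction (Snx10), 1 with scaling to the 75th percentile (Snx20), 3 with the trended robust prior (Snx10, Snx2 and Snx20) and 1 with the replicate block (Snx20). The members' median of -0.02 became 0.11 with scaling to the 75th percentile. The causes were not tested. Over the whole table, 557 probes were called. The total was 855 with quantile normalization, 839 with offset 50, 2115 with the 75th percentile, 868 for probes detected on all arrays, 1307 with the trended prior and 1114 with array weights. It was 260 with 1 probe per gene, 36 with no filter, 165 with the replicate block and 0 to 548 with 1 array left out. The labels do not say that replicate numbers are pairs, and they were not taken as such. Same-numbered tumors did not deviate together (r = -0.46, -0.06 and -0.31 over probes). With 3 tumors per group, and skin content that differs within both, these values cannot tell whether same-numbered tumors shared an experiment. Low signal limits Snx19, Snx20, Snx29, Snx32, the dimmest Snx14, Snx25 and Mia3 probes and Sec23a, which lie near background in at least 1 group.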
